A study of Mus musculus with 24 samples.

Results

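A set of 10 genes of transforming growth factor beta (TGF-beta) signaling and of the myofibroblast was followed in RNA from mouse kidneys, after sham surgery or after IRI surgery (ischemia reperfusion injury, with the injured groups labelled B-IRI). The genes are Tgfb1, Tgfb2, Tgfbr1, Pdgfra, Pdgfrb, Acta2, Tagln, Postn, Vim and Dcn. They were chosen by name, with earlier results of these data known, and their Ensembl IDs were looked up among the 55416 gene IDs of the deposited table. Each of the 10 matched 1 ID, and all 10 were among the 17430 genes tested, those reaching 10 normalized counts in 6 libraries or more. The list mixes 2 ligands and 1 receptor of TGF-beta, 2 receptors of platelet-derived growth factor (PDGF), and 5 genes often used to mark fibroblasts, myofibroblasts or their matrix.

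The 24 libraries fall into 4 groups of 6, namely B-IRI PolgD257A, B-IRI Polg+/+, sham PolgD257A and sham Polg+/+. The enzyme that Polg encodes copies mitochondrial DNA, and the D257A change removes its proofreading. Polg+/+ animals were littermates, the labels call the 6 libraries of a group biological replicates, and whole kidney was the tissue. The design text asks how mutations of mitochondrial DNA contribute to the injury, while the sources used here leave unstated the zygosity of D257A, the animals' strain, sex and age, and when after surgery the kidneys were taken.

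TGF-beta is secreted as a latent complex that is held in the matrix and released by integrins, proteases and thrombospondin. The active ligand binds the type II receptor, which recruits and phosphorylates the type I receptor encoded by Tgfbr1, and the signal passes to the nucleus through SMAD2, SMAD3 and SMAD4. In the injured kidney this pathway and PDGF signaling are known for turning fibroblasts and pericytes into myofibroblasts, contractile cells rich in alpha smooth muscle actin that lay down matrix.

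The genes lie on 10 chromosomes of GRCm38, as annotated in GENCODE M21. Tgfb1 is on chromosome 7 (25687002 to 25705077, plus strand), Tgfb2 on chromosome 1 (186622792 to 186705989, minus) and Tgfbr1 on chromosome 4 (47353222 to 47414931, plus). Pdgfra is on chromosome 5 (75152292 to 75198215, plus) and Pdgfrb on chromosome 18 (61045150 to 61085061, plus). Acta2 is on chromosome 19 (34241090 to 34255590, minus), Tagln on chromosome 9 (45929619 to 45936058, minus), Postn on chromosome 3 (54361109 to 54391037, plus), Vim on chromosome 2 (13573927 to 13582826, plus) and Dcn on chromosome 10 (97479609 to 97518143, plus). Counts sum over the exons of each gene, and 7 of the 10 share no exon base with another gene. Of Tagln's 1988 exon bases, 67.9% overlap genes on the opposite strand, against 6.5% for Pdgfra and 2.14% for Tgfb2. The sources used here do not say if the counting took account of strand.

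Depth ran from 16689284 to 26341004 gene-assigned reads per library, with the sham Polg+/+ libraries the shallowest (16689284 to 19737994). Polg itself had 1091 to 1232 normalized counts in B-IRI PolgD257A and 1043 to 1147 in B-IRI Polg+/+ libraries, and 997 to 1134 in sham PolgD257A and 1031 to 1093 in sham Polg+/+ libraries. A codon change need not alter its mRNA level, so this does not check the genotype labels. Kidney tubule markers (7 genes) summed to 151416 to 368916 normalized counts over the 24 libraries, so markers of the labelled tissue were abundant. Normalized counts are gene counts divided by 1 size factor per library. Changes are given as log2 of (normalized count + 1) with the limma standard error (SE), and p-values, two-sided from limma, were adjusted by Benjamini-Hochberg across the 17430 genes, where values under 0.05 passed. Each comparison of 2 groups sets 6 libraries against 6, and comparisons that share a group are not independent of each other.

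Promoter sequences were at hand in the RefSeq table for 7 of the 10 genes (GRCm38.p6). The 250 bases before the RefSeq start site are shown for 2 sets of genes. These are the 3 genes whose levels rose most in injured PolgD257A kidneys (Postn, Acta2 and Vim) and the 2 ligands, which parted after injury. In Vim and Acta2 the RefSeq start lies inside the gene as GENCODE M21 places it. The Vim bases shown are thus wholly within the GENCODE gene, and the Acta2 bases mostly so. Each reads 5′ to 3′ on the gene's own strand, and capitals mark the TATA box letters TATAAA, the core CAGAC of the SMAD binding element or its reverse complement GTCTG, and a CArG-like box, the site class bound by serum response factor.
Postn (chr3:54360857-54361106, plus strand): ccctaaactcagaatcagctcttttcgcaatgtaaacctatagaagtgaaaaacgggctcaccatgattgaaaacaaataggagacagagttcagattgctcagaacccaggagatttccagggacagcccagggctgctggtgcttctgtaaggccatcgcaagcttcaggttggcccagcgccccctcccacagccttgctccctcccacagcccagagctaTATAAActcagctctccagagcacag
Acta2 (chr19:34255374-34255623, minus strand): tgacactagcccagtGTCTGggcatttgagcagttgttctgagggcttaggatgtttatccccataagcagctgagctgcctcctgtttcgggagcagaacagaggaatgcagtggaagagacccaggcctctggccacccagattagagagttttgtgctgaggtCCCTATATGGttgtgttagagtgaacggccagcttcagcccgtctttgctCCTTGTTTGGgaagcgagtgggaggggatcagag
Vim (chr2:13574061-13574310, plus strand): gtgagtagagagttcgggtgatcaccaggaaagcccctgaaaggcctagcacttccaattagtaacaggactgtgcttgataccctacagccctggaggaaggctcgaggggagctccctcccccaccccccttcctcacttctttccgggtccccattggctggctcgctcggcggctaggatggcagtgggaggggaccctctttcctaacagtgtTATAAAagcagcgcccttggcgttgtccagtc
Tgfb1 (chr7:25686752-25687001, plus strand): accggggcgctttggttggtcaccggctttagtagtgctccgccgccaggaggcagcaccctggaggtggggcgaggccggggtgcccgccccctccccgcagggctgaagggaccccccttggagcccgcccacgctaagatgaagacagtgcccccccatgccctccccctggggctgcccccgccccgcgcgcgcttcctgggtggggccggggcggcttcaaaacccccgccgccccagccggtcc
Tgfb2 (chr1:186705990-186706239, minus strand): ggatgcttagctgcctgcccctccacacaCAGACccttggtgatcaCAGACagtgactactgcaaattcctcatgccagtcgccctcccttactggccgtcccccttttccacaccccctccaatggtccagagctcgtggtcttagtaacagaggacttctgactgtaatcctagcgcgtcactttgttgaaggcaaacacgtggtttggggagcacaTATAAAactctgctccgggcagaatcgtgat

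The search ran on both strands over windows of 300 bases (250 before and 50 after the RefSeq start site, from which all positions are counted). The CArG-like box was CC, then 6 bases of which at most 1 was G or C, then GG. This form was chosen after the strict box, whose 6 inner bases are all A or T, had found no match in the genes listed. In Acta2 it matched at -84 to -75 (CCCTATATGG) and at -34 to -25 (CCTTGTTTGG), counted from the start site, while 9.98% of 32851 promoters held such a box and 1.63% held the strict one. No other member with an entry held one. CAGAC, found in 49.6% of promoters, occurred at -221 and -204 in Tgfb2 and on the other strand at -235 in Acta2. Among sequences not shown, it lay at -203 in an entry of Tgfbr1, at -191 in another entry of Postn and, on the other strand, at -146 in Pdgfra. TATAAA, found in 13.6%, lay at -32 in Vim, -31 in Tgfb2 and -26 in Postn. Tgfb1, with 75.2% G or C in the bases shown, had none of these. Tgfb2, in contrast, had 53.6%. A match describes letters only and shows no binding.

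Per kilobase of exon, the order of the members' levels differed between injured and uninjured kidneys. In B-IRI PolgD257A kidneys Acta2 (777 ± 213 normalized counts per kilobase, SD, n = 6) and Vim (520 ± 126) led, followed by Pdgfrb (274 ± 38.2), Tgfbr1 (229 ± 32.6) and Tgfb1 (124 ± 14.9). Dcn (84.5 ± 19.0) and Pdgfra (80.1 ± 14.3) came next, then Postn (21.8 ± 4.22), Tagln (16.0 ± 3.19) and Tgfb2 (5.18 ± 1.45). The SD ranges of Acta2 and Vim met, as did those of Pdgfrb and Tgfbr1, of Dcn and Pdgfra, and of Postn and Tagln, so the order within these pairs is not settled. In sham Polg+/+ kidneys Acta2 (202 ± 13.2) led Tgfbr1 (174 ± 13.3), Vim (141 ± 13.9), Dcn (121 ± 14.7) and Pdgfrb (112 ± 14.4). Below them came Tgfb1 (55.96 ± 5.46), Pdgfra (50.3 ± 8.98), Tagln (8.66 ± 2.04), Tgfb2 (7.02 ± 1.94) and Postn (6.14 ± 1.68). Here the SD ranges met between Vim and Dcn, Dcn and Pdgfrb, and Tgfb1 and Pdgfra, and between each pair of Tagln, Tgfb2 and Postn. Dcn thus ranked 6 of 10 in B-IRI PolgD257A and 4 of 10 in sham Polg+/+ kidneys. Postn ranked 8 of 10 in B-IRI PolgD257A and 10 of 10 in sham Polg+/+ kidneys, a difference in place that the SDs do not settle.

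**Figure D1:**
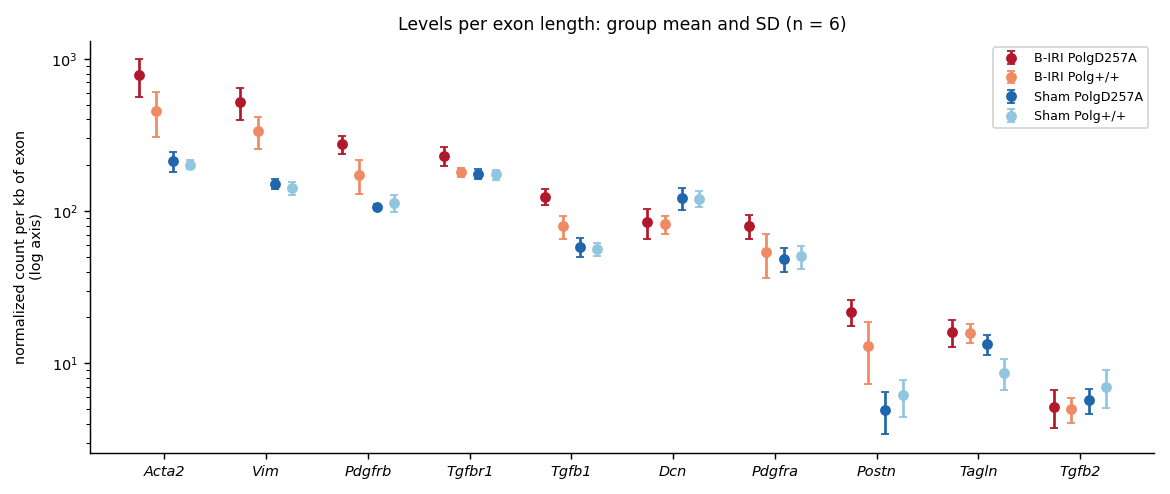
Mean normalized count per kilobase of exon (log axis) for the 10 genes in the 4 groups, with SD (n = 6). Acta2 is the highest member in each of the 4 groups, and Tgfb2, Postn and Tagln are the 3 lowest.

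In PolgD257A kidneys injury raised 7 of the 10 members and lowered 1. Tgfb1, Tgfbr1, Pdgfra, Pdgfrb, Acta2, Postn and Vim were higher in B-IRI than in sham kidneys, by 1.29-fold for the receptor gene Tgfbr1 and up to 4.42-fold for the matrix gene Postn. Dcn was lower, and Tgfb2 and Tagln did not pass. This contrast called 60.4% of all genes tested (30.2% higher and 30.3% lower), and the median change was 0.91 over the members against -0.00 over all genes. For 6 members each B-IRI library lay above each sham library, where 18.8% of all genes did so and 36.2% had no overlap in either direction.

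In Polg+/+ kidneys injury raised 6 members (Tgfb1, Pdgfrb, Acta2, Tagln, Postn and Vim), from 1.40-fold for Tgfb1 to 2.33-fold for Vim, and lowered Dcn. Tgfb2, Tgfbr1 and Pdgfra did not pass. Here 41.2% of all genes were called (21.4% higher and 19.8% lower), and the median change was 0.54 over the members against -0.01 over all genes. Acta2, Tagln and Vim had each B-IRI library above each sham library, against 11.5% of all genes, and Dcn each below, against 8.7% (20.2% in either direction).

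After B-IRI, 7 members were higher in PolgD257A than in Polg+/+ kidneys and 0 were lower. These were Tgfb1, Tgfbr1, Pdgfra, Pdgfrb, Acta2, Postn and Vim, between 1.27-fold (Tgfbr1) and 1.76-fold (Postn), while Tgfb2, Tagln and Dcn did not pass. Of all genes 29.5% were called (14.3% higher and 15.2% lower), and the median change was 0.63 over the members against 0.01 over all genes. Only Tgfb1 among the 10 had groups that did not overlap, where 4.65% of all genes were higher and 5.94% lower without overlap. In sham kidneys 0 of the 10 members differed between PolgD257A and Polg+/+ by limma, edgeR or DESeq2, with 1 (Tagln) at an unadjusted p under 0.05 by limma, and 0.126% of all genes were called (0.0861% higher and 0.0402% lower). None of the 10 had sham groups that did not overlap, where 0.379% of all genes were higher and 0.252% lower without overlap.

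The surgery by genotype interaction, which tests whether the injury change differed between the genotypes, was past the threshold for 5 members. Tgfb1, Tgfbr1, Pdgfrb, Acta2 and Postn changed more in PolgD257A kidneys, and 0 changed less, where 15.9% of all genes were called (6.87% higher and 9.08% lower). The median interaction was 0.57 over the members and 0.00 over all genes. The calls of Tgfbr1 and Acta2 were fragile, and they are taken up with those genes.

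**Figure D2:**
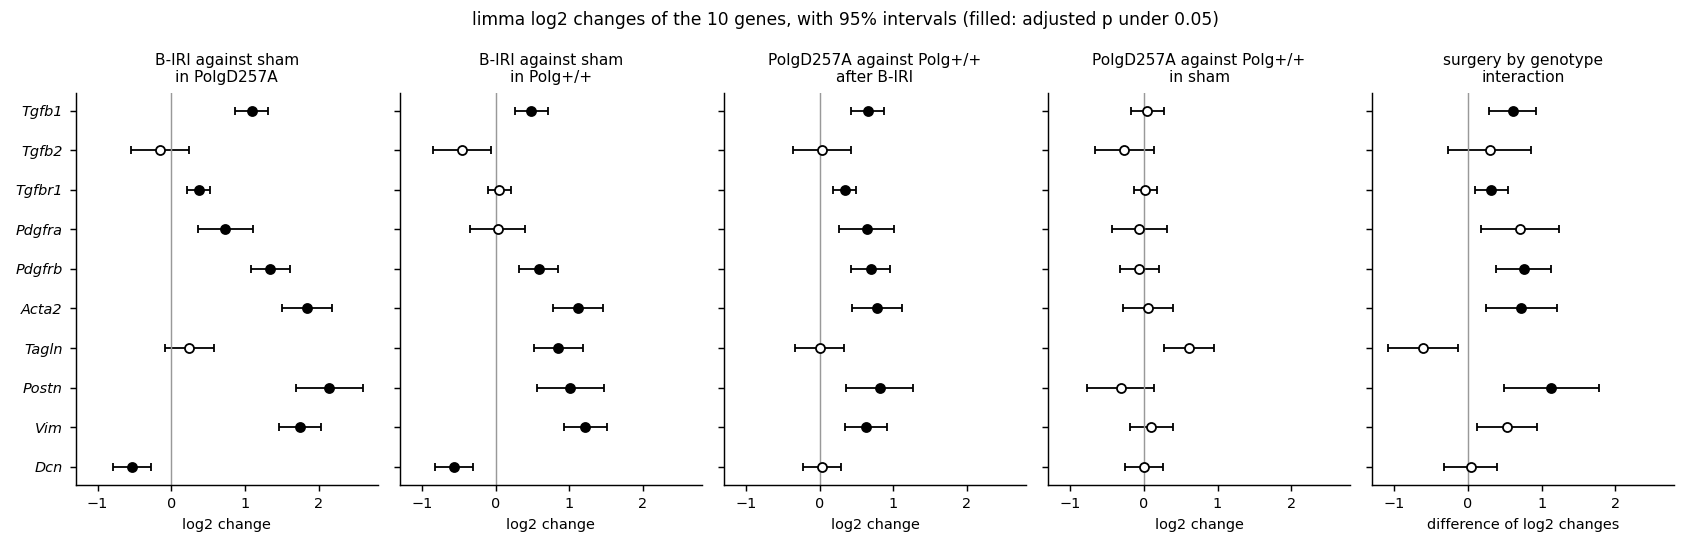
Log2 change of the 10 genes with its 95% confidence interval (limma) in the 4 comparisons of 2 groups and in the interaction. In 7 genes the change lies above 0 past the threshold for injury in PolgD257A and for genotype after B-IRI, Dcn lies below 0 for injury in both genotypes, and none passed for genotype in sham.

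Among the ligands, Tgfb1, the isoform best known for driving scarring in the kidney, was the member whose injured groups parted completely. B-IRI PolgD257A libraries had 521, 638 and 698 normalized counts (lowest, median and highest of 6, the order used for all members) and B-IRI Polg+/+ libraries 274, 412 and 458. Sham PolgD257A libraries had 245, 280 and 353 and sham Polg+/+ libraries 233, 287 and 309. Every injured PolgD257A library thus exceeded every library of the other 3 groups, whereas the injured Polg+/+ group reached into the sham range through 1 library, replicate 1. The injury change was 1.09 ± 0.11 in PolgD257A (2.13-fold, adjusted p = 2.9e-09) and 0.49 ± 0.11 in Polg+/+ kidneys (1.40-fold, adjusted p = 8.3e-04). After B-IRI the genotypes differed by 0.65 ± 0.11 (1.57-fold, adjusted p = 6.8e-05) and in sham by 0.05 ± 0.11 (adjusted p = 0.96). The interaction of 0.60 ± 0.16 passed (adjusted p = 0.0092) and passed too without any single library (adjusted p = 0.0049 to 0.020).

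Tgfb2, the second ligand, was a low gene and moved differently. It had 23.1, 27.6 and 44.3 normalized counts in B-IRI PolgD257A and 21.0, 31.5 and 33.4 in B-IRI Polg+/+ libraries. In sham PolgD257A libraries it had 24.3, 35.2 and 38.8, and in sham Polg+/+ libraries 27.1, 40.7 and 54.9. All 4 groups overlapped. None of its tests passed: the injury change was -0.16 ± 0.19 in PolgD257A (95% interval -0.55 to 0.24, adjusted p = 0.50) and -0.45 ± 0.19 in Polg+/+ kidneys (-0.85 to -0.06, adjusted p = 0.063). After B-IRI the genotype difference was 0.03 ± 0.19 (-0.37 to 0.43). The change in Polg+/+ kidneys passed when replicate 1 or 4 of sham Polg+/+ was left out, and with edgeR (adjusted p = 0.049) or DESeq2 (0.040).

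The ratio of Tgfb2 to Tgfb1 within a library, which does not depend on the size factor, put the 2 ligands side by side. It was 0.0490 ± 0.0161 in B-IRI PolgD257A and 0.0754 ± 0.0250 in B-IRI Polg+/+ kidneys, and 0.114 ± 0.0204 in sham PolgD257A and 0.144 ± 0.0360 in sham Polg+/+ kidneys (SD, n = 6). Injury lowered the ratio 2.39-fold in PolgD257A (log2 -1.26, two-sided p = 0.002165 by exact permutation, the lowest value open to 6 libraries against 6, adjusted p = 0.00649 over 12 ratio tests). In Polg+/+ kidneys it was 1.94-fold lower (log2 -0.96, exact permutation p = 0.00433, adjusted p = 0.00866). The genotype difference after B-IRI (log2 -0.62, exact permutation p = 0.0390, adjusted p = 0.0584) and that in sham (-0.32, adjusted p = 0.164 by exact permutation) did not pass.

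Tgfbr1 encodes the type I receptor kinase that phosphorylates SMAD2 and SMAD3. Its levels were 1141, 1506 and 1805 normalized counts in B-IRI PolgD257A and 1053, 1171 and 1274 in B-IRI Polg+/+ libraries. Sham PolgD257A libraries had 1077, 1110 and 1264, and sham Polg+/+ libraries 1031, 1148 and 1250. Only the injured PolgD257A group stood out, and its lowest library still lay within the range of each other group. The injury change was 0.37 ± 0.08 in PolgD257A (1.29-fold, adjusted p = 1.7e-04) and 0.05 ± 0.08 in Polg+/+ kidneys (95% interval -0.11 to 0.21, adjusted p = 0.63). After B-IRI the genotypes differed by 0.34 ± 0.08 (1.27-fold, adjusted p = 0.0014). The interaction was 0.32 ± 0.11 (adjusted p = 0.045), a call that was lost when any of 17 of the 24 libraries was left out (adjusted p = 0.0033 to 0.087 over all 24).

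Of the PDGF receptors, Pdgfrb, which marks pericytes, mesangial cells and fibroblasts, had 1155, 1537 and 1751 normalized counts in B-IRI PolgD257A and 561, 968 and 1193 in B-IRI Polg+/+ libraries. Sham PolgD257A libraries had 546, 590 and 616, and sham Polg+/+ libraries 534, 606 and 733. The injured PolgD257A libraries lay above all sham libraries and overlapped slightly with the injured Polg+/+ ones. The injury change was 1.34 ± 0.13 in PolgD257A (2.54-fold, adjusted p = 1.3e-09) and 0.59 ± 0.13 in Polg+/+ kidneys (adjusted p = 6.5e-04). After B-IRI the genotype difference was 0.69 ± 0.13 (1.62-fold, adjusted p = 2.0e-04), and the interaction was 0.76 ± 0.18 (adjusted p = 0.0060, and 0.0023 to 0.014 without any single library).

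Pdgfra, the receptor that marks resident fibroblasts, changed in 1 genotype by its own test. It had 669, 767 and 969 normalized counts in B-IRI PolgD257A and 272, 603 and 686 in B-IRI Polg+/+ libraries. In sham PolgD257A libraries it had 359, 484 and 615, and in sham Polg+/+ libraries 409, 485 and 662. B-IRI PolgD257A libraries all exceeded the sham PolgD257A ones, and the other 3 groups covered much the same range. Injury changed it by 0.73 ± 0.18 in PolgD257A (1.66-fold, adjusted p = 0.0012) and by 0.03 ± 0.18 in Polg+/+ kidneys (95% interval -0.34 to 0.40, adjusted p = 0.91). Genotype after B-IRI gave 0.64 ± 0.18 (1.56-fold, adjusted p = 0.0091). That the injury changes differ was not shown, since the interaction of 0.70 ± 0.26 did not pass (adjusted p = 0.064). It passed when replicate 4 of sham PolgD257A was left out, and likewise for replicates 2, 3 and 4 of B-IRI Polg+/+.

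The ratio of Pdgfra to Pdgfrb fell with injury by a similar amount in both genotypes. It was 0.536 ± 0.0648 in B-IRI PolgD257A and 0.557 ± 0.0747 in B-IRI Polg+/+ kidneys, against 0.825 ± 0.138 in sham PolgD257A and 0.817 ± 0.0722 in sham Polg+/+ kidneys (SD, n = 6). Injury lowered it 1.53-fold in PolgD257A (log2 -0.62, exact permutation p = 0.00433, adjusted p = 0.00866) and 1.47-fold in Polg+/+ kidneys (log2 -0.56, exact permutation p = 0.002165, adjusted p = 0.00649). Between the genotypes it differed by -0.05 after B-IRI (exact permutation adjusted p = 0.673) and by 0.00 in sham (exact permutation adjusted p = 0.989).

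**Figure D3:**
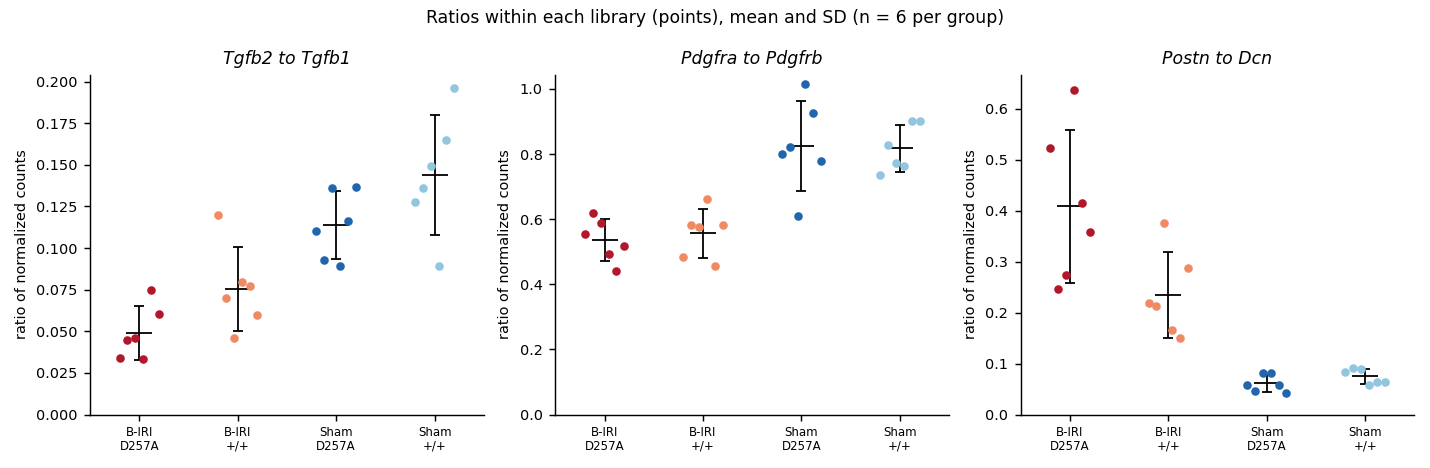
Ratios of normalized counts within each library (points) with the group mean and SD (n = 6), for Tgfb2 to Tgfb1, Pdgfra to Pdgfrb and Postn to Dcn. The first and second ratios are lower and the last higher in the B-IRI groups than in the sham groups; the values are per gene and not per length.

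Acta2 encodes alpha smooth muscle actin, the defining filament of the myofibroblast and of vascular smooth muscle. It had 1047, 1747 and 2295 normalized counts in B-IRI PolgD257A and 712, 873 and 1627 in B-IRI Polg+/+ libraries. In sham PolgD257A libraries it had 364, 467 and 564, and sham Polg+/+ libraries 387, 450 and 471. Every injured library exceeded every sham library, and the injured groups overlapped. The injury change was 1.84 ± 0.17 in PolgD257A (3.57-fold, adjusted p = 3.8e-10) and 1.12 ± 0.17 in Polg+/+ kidneys (2.17-fold, adjusted p = 6.0e-06). Genotype after B-IRI gave 0.78 ± 0.17 (1.72-fold, adjusted p = 7.7e-04). The interaction of 0.72 ± 0.23 passed (adjusted p = 0.035) but was lost without any of 13 of the 24 libraries (adjusted p = 0.0043 to 0.070 over all 24) and with edgeR (0.051).

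Tagln encodes transgelin (SM22), an actin-binding protein of smooth muscle. It was low, with 22.8, 31.7 and 41.7 normalized counts in B-IRI PolgD257A and 26.0, 31.4 and 38.5 in B-IRI Polg+/+ libraries. In sham PolgD257A libraries it had 19.5, 28.0 and 29.7, and sham Polg+/+ libraries 12.4, 15.9 and 22.4. The sham Polg+/+ group was the lowest, and the other 3 groups overlapped each other. Injury raised it in Polg+/+ kidneys (0.85 ± 0.16, 1.81-fold, adjusted p = 1.5e-04), while in PolgD257A kidneys the change was 0.24 ± 0.16 (95% interval -0.09 to 0.58, adjusted p = 0.20). The genotype difference in sham, 0.61 ± 0.16 (0.27 to 0.95), did not pass over all genes (adjusted p = 0.21), and after B-IRI it was -0.00 ± 0.16 (-0.34 to 0.34). The interaction of -0.61 ± 0.23 did not pass (adjusted p = 0.073). It passed when replicate 4 or 6 of sham Polg+/+, replicate 5 of sham PolgD257A or replicate 4 of B-IRI PolgD257A was left out.

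Tagln's reads carry an uncertainty of their own. The antisense gene Gm48529 covers 1241 of its exon bases and Pcsk7 covers 108. Gm48529 averaged 15.8 ± 5.53 normalized counts in B-IRI PolgD257A and 14.1 ± 3.06 in B-IRI Polg+/+ kidneys, and 15.4 ± 3.44 in sham PolgD257A and 13.1 ± 4.52 in sham Polg+/+ kidneys. Pcsk7 averaged 842 ± 25.2 in B-IRI PolgD257A and 917 ± 41.2 in B-IRI Polg+/+ kidneys, and 974 ± 64.9 in sham PolgD257A and 1032 ± 65.9 in sham Polg+/+ kidneys (SD, n = 6). Without strand-aware counting the reads of overlapping genes cannot be told apart, and the part of these genes in Tagln's result was not tested.

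Postn encodes periostin, a matricellular protein scarce in the healthy kidney and laid down around injured tubules. It had 156, 175 and 243 normalized counts in B-IRI PolgD257A and 68.6, 103 and 208 in B-IRI Polg+/+ libraries. Sham PolgD257A libraries had 31.3, 37.4 and 62.3, and sham Polg+/+ libraries 34.2, 51.4 and 75.5. In PolgD257A kidneys the injured libraries all lay above the sham ones, and in Polg+/+ kidneys they overlapped. The injury change was 2.14 ± 0.22 in PolgD257A (4.42-fold, adjusted p = 4.4e-09) and 1.02 ± 0.22 in Polg+/+ kidneys (2.02-fold, adjusted p = 6.0e-04). Genotype after B-IRI gave 0.82 ± 0.22 (1.76-fold, adjusted p = 0.0062), and the interaction was 1.13 ± 0.31 (adjusted p = 0.015, and 0.0021 to 0.031 without any single library).

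Vim encodes vimentin, an intermediate filament of mesenchymal, endothelial and immune cells that injured tubule cells also take up. It had 1578, 2536 and 3062 normalized counts in B-IRI PolgD257A and 1088, 1526 and 2214 in B-IRI Polg+/+ libraries. In sham PolgD257A libraries it had 632, 720 and 786, and sham Polg+/+ libraries 580, 677 and 738. Every injured library was above every sham library. The injury change was 1.75 ± 0.14 in PolgD257A (3.35-fold, adjusted p = 5.4e-11) and 1.22 ± 0.14 in Polg+/+ kidneys (2.33-fold, adjusted p = 1.6e-07). After B-IRI the genotypes differed by 0.63 ± 0.14 (1.55-fold, adjusted p = 0.0013). The interaction of 0.53 ± 0.20 did not pass (adjusted p = 0.072), though it did when replicate 6 of B-IRI PolgD257A or replicate 3 of B-IRI Polg+/+ was left out.

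Dcn, the only member that fell, encodes decorin, a small leucine-rich proteoglycan that binds collagen and can bind and hold TGF-beta. It had 382, 444 and 635 normalized counts in B-IRI PolgD257A and 379, 474 and 554 in B-IRI Polg+/+ libraries. Sham PolgD257A libraries had 533, 709 and 888, and sham Polg+/+ libraries 585, 700 and 842. In Polg+/+ kidneys the injured libraries all lay below the sham ones, and in PolgD257A kidneys the ranges overlapped. The fall was -0.53 ± 0.13 in PolgD257A (1.45-fold lower, adjusted p = 6.8e-04) and -0.57 ± 0.13 in Polg+/+ kidneys (1.48-fold lower, adjusted p = 7.4e-04). Genotype after B-IRI gave 0.03 ± 0.13 (95% interval -0.23 to 0.29) and the interaction was 0.03 ± 0.18 (-0.33 to 0.40).

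The ratio of Postn to Dcn within a library was 0.409 ± 0.150 in B-IRI PolgD257A and 0.235 ± 0.0843 in B-IRI Polg+/+ kidneys, and 0.0612 ± 0.0169 in sham PolgD257A and 0.0751 ± 0.0149 in sham Polg+/+ kidneys (SD, n = 6). Injury raised it 6.52-fold in PolgD257A (log2 2.71) and 3.03-fold in Polg+/+ kidneys (log2 1.60), each with an exact permutation p of 0.002165 (adjusted p = 0.00649). After B-IRI it was 1.73-fold higher in PolgD257A than in Polg+/+ kidneys (log2 0.79, exact permutation p = 0.0260, adjusted p = 0.0445). This call was lost when replicate 1, 4, 5 or 6 of B-IRI PolgD257A was left out, and likewise for replicates 1, 2, 4 and 5 of B-IRI Polg+/+.

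**Figure D4:**
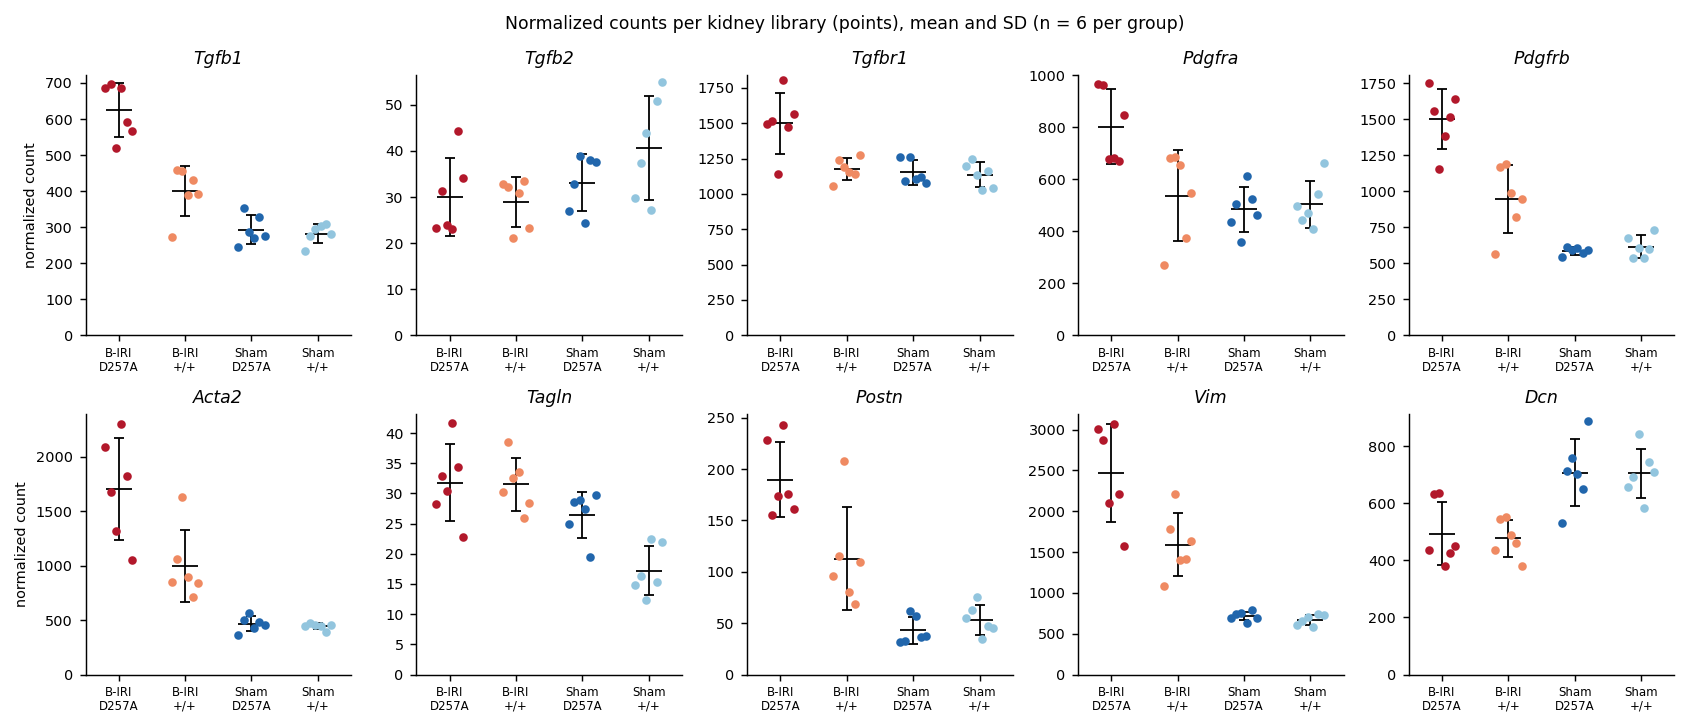
Normalized counts of the 10 genes in each of the 24 libraries (points) with the group mean and SD (n = 6), each panel from 0 on its own axis. Acta2 and Vim lie above the sham range in all 12 injured libraries, Tgfb1 does so in all 6 injured PolgD257A libraries, and Dcn is lower in the injured groups.

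The authors' deposited table of their own comparison, which holds 1401 selected genes, lists 5 of the members. By that table the shrunken log2 fold change was 0.71 for Acta2 (SE 0.175), 0.62 for Pdgfrb (SE 0.132), 0.62 for Postn (SE 0.237), 0.61 for Tgfb1 (SE 0.112) and 0.58 for Vim (SE 0.148). Its s-values for these genes ran from 2.9e-09 (Tgfb1) to 6.7e-04 (Postn). The sign of the authors' deposited table follows PolgD257A over Polg+/+ after B-IRI.

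Within groups the libraries were uneven, and some held the lowest or highest value of several members. In the B-IRI Polg+/+ group replicate 1 had the lowest value of 5 members and replicate 3 the highest of 6. The 10 members together summed to 4690 normalized counts in replicate 1 and 8179 in replicate 3, and the 5 injured tubule markers (Havcr1, Lcn2, Krt20, Sox9 and Vcam1) summed to 6947 in replicate 1 and 21395 in replicate 3. Over the 6 libraries the sums did not keep 1 order: replicate 6 had the highest injured tubule sum (30657) with a member sum of 6176, and replicate 4 had 8360 with a member sum of 6134. None of the 22 calls in the comparisons of 2 groups was lost when any single library was left out.

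Markers of other cells moved with these results. Counts of called genes here and in the lists that follow belong beside the share of all genes called in the same comparison. That share, in either direction, was 60.4% for injury in PolgD257A, 41.2% for injury in Polg+/+ and 29.5% for genotype after B-IRI. The injured tubule markers rose in 5 of 5 with injury in both genotypes, and 4 of 5 were higher in PolgD257A than in Polg+/+ kidneys after B-IRI. They summed to 33708 to 53008 normalized counts in B-IRI PolgD257A, 6947 to 30657 in B-IRI Polg+/+, 437 to 576 in sham PolgD257A and 355 to 491 in sham Polg+/+ libraries. Tubule markers summed to 151416 to 210252 in B-IRI PolgD257A, 252458 to 298212 in B-IRI Polg+/+, 327024 to 368916 in sham PolgD257A and 316869 to 360511 in sham Polg+/+ libraries, with 5 of 7 lower by genotype after B-IRI. In bulk RNA, fewer cells of a type and less RNA per cell cannot be told apart. The part of the cell makeup in the members' results was not tested.

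Stromal and vascular markers changed less in sum, but the fibroblast list leaves out the collagen genes Col1a1, Col1a2 and Col3a1. Col1a2 averaged 3544 normalized counts in B-IRI PolgD257A and 2370 in B-IRI Polg+/+ kidneys. In sham kidneys it averaged 1230 in PolgD257A and 1201 in Polg+/+. Col1a1 and Col3a1 are counted among the target genes of TGF-beta below. With injury Col1a1 rose by 2.57 ± 0.18 in PolgD257A and 1.73 ± 0.18 in Polg+/+ kidneys. Col3a1 rose by 2.66 ± 0.19 in PolgD257A and 1.85 ± 0.19 in Polg+/+ kidneys. Fibroblast markers (12 genes) summed to 3385 to 4606 in B-IRI PolgD257A, 2196 to 3825 in B-IRI Polg+/+, 2561 to 3263 in sham PolgD257A and 2489 to 3188 in sham Polg+/+ libraries. For injury 4 were higher and 1 lower in PolgD257A and 3 higher and 2 lower in Polg+/+ kidneys. These counts were under the share of all genes called in PolgD257A and near it in Polg+/+ kidneys. Mural cell markers (6 genes) summed to 2232 to 2560 in B-IRI PolgD257A, 1866 to 2223 in B-IRI Polg+/+, 2155 to 2468 in sham PolgD257A and 2009 to 2523 in sham Polg+/+ libraries. With injury 3 mural markers rose and 2 fell in PolgD257A, and 2 rose and 3 fell in Polg+/+ kidneys. The channel subunit gene Abcc9 changed by -1.85 ± 0.13 in PolgD257A and -1.12 ± 0.13 in Polg+/+ kidneys. Kcnj8 changed by -0.73 ± 0.09 and -0.67 ± 0.09. The adhesion molecule gene Mcam rose by 1.16 ± 0.13 and 0.38 ± 0.13, and the receptor gene Notch3 by 0.62 ± 0.08 and 0.22 ± 0.08. After B-IRI, Mcam (0.67 ± 0.13) and Notch3 (0.44 ± 0.08) were higher and Abcc9 was lower (-0.70 ± 0.13) in PolgD257A than in Polg+/+ kidneys. Endothelial markers (6 genes) summed to 4981 to 6409 in B-IRI PolgD257A, 3463 to 5425 in B-IRI Polg+/+, 4686 to 5857 in sham PolgD257A and 4296 to 5820 in sham Polg+/+ libraries, with 4 higher by genotype after B-IRI. Podocyte markers (6 genes) summed to 5750 to 6867 in B-IRI PolgD257A, 5343 to 6206 in B-IRI Polg+/+, 4440 to 6402 in sham PolgD257A and 4510 to 5913 in sham Polg+/+ libraries.

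Leukocyte markers (8 genes) summed to 1342 to 1684 normalized counts in B-IRI PolgD257A, 1276 to 1648 in B-IRI Polg+/+, 1652 to 1906 in sham PolgD257A and 1708 to 2045 in sham Polg+/+ libraries. With injury 3 of the 8 rose and 1 fell in each genotype, under the share of all genes called in PolgD257A and near it in Polg+/+ kidneys. Cd68, a lysosomal protein of macrophages, rose by 2.41 ± 0.14 in PolgD257A and 2.08 ± 0.14 in Polg+/+ kidneys. Itgam rose by 2.35 ± 0.24 in PolgD257A and 1.40 ± 0.24 in Polg+/+ kidneys, and S100a8 by 3.2 ± 0.45 and 2.6 ± 0.45. The macrophage receptor gene Csf1r fell (-1.15 ± 0.08 in PolgD257A and -0.74 ± 0.08 in Polg+/+ kidneys). Csf1r made up much of the sum, averaging 1329 normalized counts in sham PolgD257A and 604 in B-IRI PolgD257A kidneys. Markers of perirenal fat and urothelium (6 genes) summed to 101 to 183 in B-IRI PolgD257A, 106 to 329 in B-IRI Polg+/+, 71.9 to 746 in sham PolgD257A and 87.2 to 1595 in sham Polg+/+ libraries. The fat markers Adipoq and Plin1 were at 0 in some libraries. Among sham Polg+/+ libraries, replicate 4 had the smallest such sum (87.2) and the lowest Dcn (585 normalized counts). Among sham PolgD257A libraries, replicate 6 had the largest sum (746) and the highest Dcn (888), but replicate 2, with the smallest sum (71.9), had 715. The part of this tissue in the fall of Dcn was not tested.

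Of 14 ligands and activators of TGF-beta, 8 rose and 4 fell with injury in PolgD257A, 3 rose and 3 fell in Polg+/+ kidneys, and 5 were higher and 1 lower in PolgD257A after B-IRI. Their median change was 0.59 for injury in PolgD257A, -0.03 for injury in Polg+/+ and 0.18 for genotype after B-IRI. The protease gene Mmp14 (1.39 ± 0.12), Lrrc32, which encodes a cell surface docking protein of latent TGF-beta (1.63 ± 0.16), the thrombospondin gene Thbs1 (0.83 ± 0.10) and the integrin gene Itgb6 (0.82 ± 0.08) rose with injury in PolgD257A. The latent TGF-beta binding protein gene Ltbp4 (-0.69 ± 0.10) and the integrin gene Itgb8 (-0.48 ± 0.08) fell. Lrrc32 averaged 867 normalized counts in B-IRI PolgD257A and 423 in B-IRI Polg+/+ kidneys, without overlap (1.05 ± 0.16, adjusted p = 2.7e-05). The remaining ligand gene, Tgfb3, averaged 43.4 in B-IRI PolgD257A and 22.3 in B-IRI Polg+/+ kidneys, also without overlap (0.92 ± 0.24, adjusted p = 0.0052).

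Of 11 receptors and SMADs, 7 rose and 2 fell with injury in PolgD257A (median 0.26), 2 rose and 2 fell in Polg+/+ kidneys (median 0.03), and 7 were higher by genotype after B-IRI (median 0.20). The type II receptor gene Tgfbr2 rose by 0.73 ± 0.08 in PolgD257A and 0.35 ± 0.08 in Polg+/+ kidneys, and Smad3 by 0.59 ± 0.09 in PolgD257A and 0.33 ± 0.09 in Polg+/+ kidneys. The co-receptor gene Tgfbr3 fell (-0.50 ± 0.09 in PolgD257A and -0.52 ± 0.09 in Polg+/+ kidneys). Smad1 (0.50 ± 0.07) and the endothelial co-receptor gene Eng (0.43 ± 0.08) were higher in PolgD257A than in Polg+/+ kidneys after B-IRI, with no overlap for either. Of the 12 inhibitors tested, 5 rose and 1 fell in PolgD257A, 3 rose and 1 fell in Polg+/+ kidneys, and 4 were higher by genotype after B-IRI. Among them were Pmepa1, a feedback inhibitor of SMAD signaling (0.90 ± 0.07 with injury in PolgD257A and 0.47 ± 0.07 in Polg+/+ kidneys), and the corepressor gene Tgif1 (1.03 ± 0.11 in PolgD257A and 0.61 ± 0.11 in Polg+/+ kidneys). The ubiquitin ligase gene Smurf2 fell (-0.20 ± 0.06 in PolgD257A and -0.28 ± 0.06 in Polg+/+ kidneys). The inhibitor counts were near or under the shares of all genes called for injury, 60.4% in PolgD257A and 41.2% in Polg+/+ kidneys. For injury in Polg+/+ kidneys the counts of ligands and activators and of receptors and SMADs were near that share too.

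Of 15 target genes of TGF-beta, 14 rose with injury in PolgD257A (median 1.68), 10 rose and 1 fell in Polg+/+ kidneys (median 0.92), and 11 were higher by genotype after B-IRI (median 0.67), with 7 past the interaction. Ccn2, the connective tissue growth factor gene, was the 1 target gene that fell in Polg+/+ kidneys (-0.68 ± 0.18, adjusted p = 0.0031). In B-IRI it averaged 1866 in PolgD257A and 830 in Polg+/+ kidneys (1.20 ± 0.18, adjusted p = 1.6e-05), and its interaction was 1.13 ± 0.25 (adjusted p = 0.0032). The cell cycle inhibitor gene Cdkn1a (1.12 ± 0.18) and the tenascin gene Tnc (1.36 ± 0.27) were also higher by genotype after B-IRI. The collagen gene Col1a1 averaged 2788 in B-IRI PolgD257A and 1798 in B-IRI Polg+/+ kidneys (0.64 ± 0.18, adjusted p = 0.0091).

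The 4 PDGF ligand genes split evenly. Pdgfb (1.09 ± 0.11) and Pdgfa (0.64 ± 0.10) rose with injury in PolgD257A, and Pdgfd (-0.54 ± 0.09) and Pdgfc (-0.37 ± 0.07) fell. All 4 passed in the same directions in Polg+/+ kidneys, with Pdgfb at 0.61 ± 0.11, Pdgfa at 0.24 ± 0.10 (adjusted p = 0.0495), Pdgfd at -0.43 ± 0.09 and Pdgfc at -0.24 ± 0.07. Pdgfb (0.55 ± 0.11) and Pdgfa (0.39 ± 0.10) were higher in PolgD257A than in Polg+/+ kidneys after B-IRI, and 0 were lower.

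Smooth muscle contractile genes (13 tested) had 7 higher and 0 lower with injury in either genotype and 9 higher and 0 lower by genotype after B-IRI, with median changes of 0.64 in PolgD257A, 0.36 in Polg+/+ kidneys and 0.41 between them. Tagln2, a relative of Tagln that is not restricted to muscle, rose by 1.39 ± 0.08 in PolgD257A and 0.98 ± 0.08 in Polg+/+ kidneys, and the tropomyosin gene Tpm1 by 0.96 ± 0.07 in PolgD257A and 0.59 ± 0.07 in Polg+/+ kidneys. Myh11, the myosin heavy chain that marks mature smooth muscle, averaged 298 in B-IRI PolgD257A and 319 in B-IRI Polg+/+ kidneys, and 317 in sham PolgD257A and 323 in sham Polg+/+ kidneys. It passed in none of the comparisons, and neither did the calponin gene Cnn1. Both were chosen for mention after their values were seen. Of the 4 genes tested for serum response factor and its partners, 4 rose in PolgD257A and 2 in Polg+/+ kidneys, and 3 were higher by genotype after B-IRI, among them the LIM domain gene Fhl2 (0.61 ± 0.12) and the coactivator gene Mrtfa (0.40 ± 0.08).

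Most relatives of Dcn were lower after injury too. Of the 7 small leucine-rich proteoglycans tested, 5 fell and 1 rose with injury in PolgD257A (median -0.69), and 4 fell in Polg+/+ kidneys (median -0.81). The fibromodulin gene Fmod averaged 45.7 normalized counts in B-IRI PolgD257A and 186 in sham PolgD257A kidneys (-2.11 ± 0.20, adjusted p = 1.5e-09), and 76.9 in B-IRI Polg+/+ and 184 in sham Polg+/+ kidneys (-1.27 ± 0.20). Ogn (-1.53 ± 0.16), Omd (-1.62 ± 0.26) and Prelp (-0.69 ± 0.13) fell in PolgD257A as well, with no overlap, whereas the biglycan gene Bgn rose (0.47 ± 0.13, adjusted p = 0.0024). Fmod was lower in PolgD257A than in Polg+/+ kidneys after B-IRI (-0.80 ± 0.20, adjusted p = 0.0040).

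Matricellular and myofibroblast markers (10 tested) had 7 higher and 1 lower with injury in PolgD257A, 6 higher and 1 lower in Polg+/+ kidneys, and 7 higher and 0 lower by genotype after B-IRI. Spp1, the osteopontin gene, which tubule cells also make, rose by 4.01 ± 0.23 in PolgD257A and 2.71 ± 0.23 in Polg+/+ kidneys, and Sparc by 1.34 ± 0.13 in PolgD257A and 0.94 ± 0.13 in Polg+/+ kidneys. The tenascin gene Tnn fell in PolgD257A (-1.40 ± 0.46, adjusted p = 0.010) and the fibroblast activation protein gene Fap, at 6.48 normalized counts in B-IRI and 11.3 in sham, fell in Polg+/+ kidneys (-0.74 ± 0.24, adjusted p = 0.014). Of 7 other intermediate filament genes, 6 rose with injury in each genotype and 4 were higher by genotype after B-IRI. They include the epithelial keratin gene Krt8 (2.25 ± 0.12 in PolgD257A and 1.36 ± 0.12 in Polg+/+ kidneys) and the muscle filament gene Des (0.98 ± 0.11 in PolgD257A and 0.55 ± 0.11 in Polg+/+ kidneys). In sham kidneys 0 genes of any of these lists were called between the genotypes by limma.

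**Figure D5:**
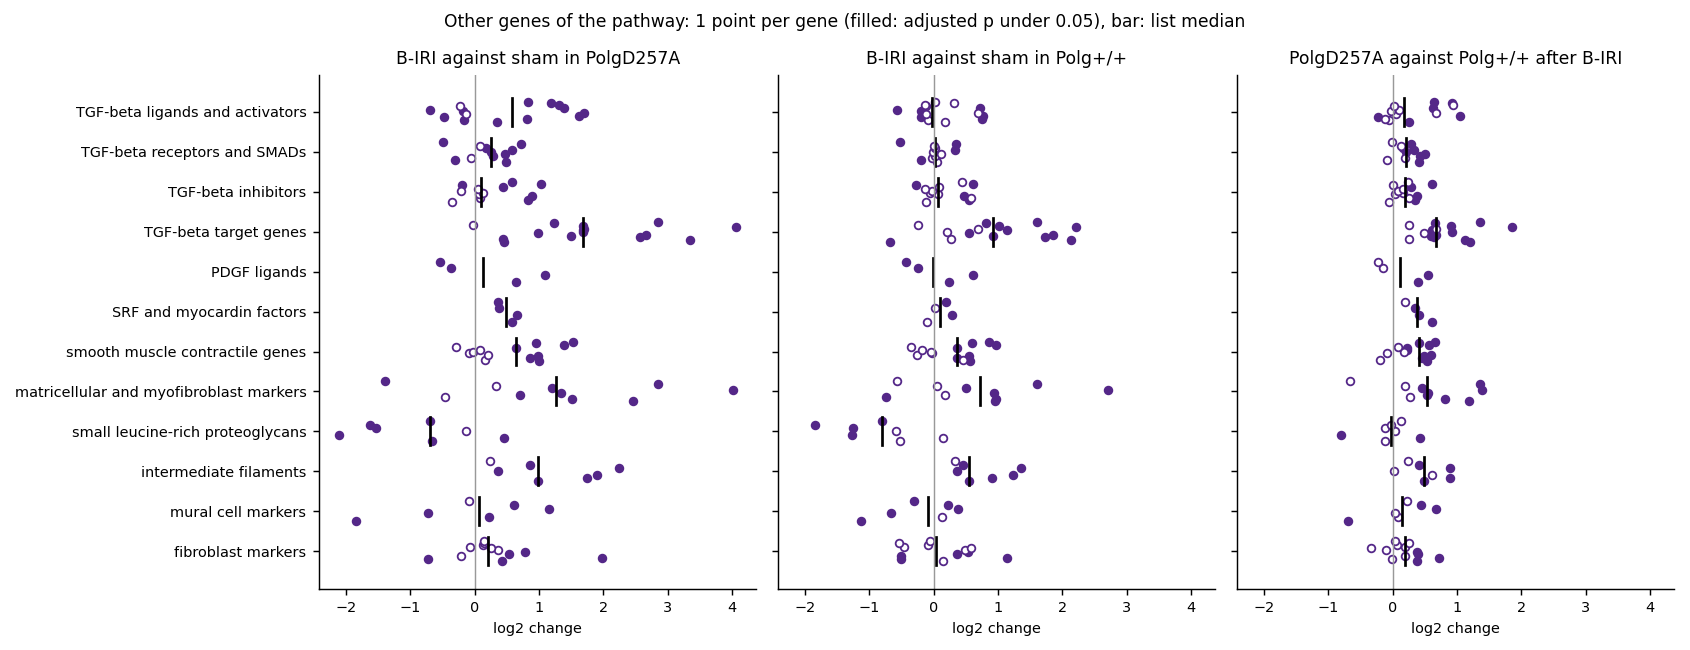
Log2 change (limma) of the tested genes of 12 lists, with 1 point per gene, filled where the adjusted p was under 0.05, and a bar at the list median, for injury in each genotype and for genotype after B-IRI. TGF-beta target genes have 14 of 15 filled points above 0 for injury in PolgD257A, and the small leucine-rich proteoglycans have a median of -0.69 for injury in PolgD257A and -0.81 for injury in Polg+/+.

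The genes whose pattern over the 24 libraries came closest to each member were found by the root mean squared difference between the log2 values of 2 genes, each set relative to its mean in sham Polg+/+, among 10812 genes averaging 100 normalized counts or more. Tgfb1 was closest to Axl (0.146), Rhob (0.148) and Mxra7 (0.153). For Pdgfrb these were Pros1 (0.126), Loxl1 (0.132) and F2r (0.152), and for Pdgfra Cyp1b1 (0.169), Lhfp (0.182) and Bgn (0.191). Acta2 had Vim (0.199) as its closest gene of all, followed by Arpc1b (0.249) and Nek6 (0.257), and Vim had Arpc1b (0.178), Tubb5 (0.180) and Tpm4 (0.181). The closest gene to Postn was Acta2 (0.348), at a larger distance. For the other members the closest genes were Esyt2 for Tgfbr1 (0.0849), Cd302 for Dcn (0.200), Peg3 for Tgfb2 (0.266) and Psmb10 for Tagln (0.332). These distances share libraries and groups and are a description without a test.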

How the data were processed

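RNA from the 24 kidneys was extracted with RNeasy kits and 2 µg went into NEBNext Ultra II libraries, per the labels' protocols. FastQC, STAR, SAMtools, featureCounts and DESeq2 with GRCm38.p6 are named, without versions, in the submitters' processing notes. The deposited signal values are normalized counts that the authors made from gene counts with 1 size factor per library (0.740 to 1.31), and multiplying back gave whole reads for 100% of values within 0.001. The authors' own table, as deposited, gives a mean signal, a shrunken log2 fold change with its standard error, and an s-value, a p-value-like measure of sign error. Column names reading Ctrl, Mut and SurgBIR were taken as Polg+/+, PolgD257A and B-IRI, which no source used here states and on which each comparison rests.

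Groups were compared with limma's trend option (limma 3.58.1 in R 4.3.3), fitting 1 mean per group to log2(normalized count + 1) in the 24 libraries, and Benjamini-Hochberg adjustment per contrast. The pseudocount of 1 understates changes of low genes, and the SE pools the spread of all groups although several members varied more after B-IRI. Ratios were compared by exact permutation. Gene symbols matched 52083 IDs (93.99%). The members and the 18 other gene lists (163 entries) were chosen with earlier results of these data known. Beside the members, the rule names up to 4 genes per list with the smallest adjusted p, and up to 2 against its direction. Col1a1 after B-IRI, Myh11 and Cnn1 lie outside it, and 1 gene that it names is not reported here. Alternatives were other pseudocounts, filters, scalings and weights, the replicate block, edgeR 4.0.16 and DESeq2 1.42.0 on the recovered reads, and leaving out each library. The models were tested on simulated counts. Python 3.11.15 with NumPy 2.4.6, pandas 2.3.3, SciPy 1.17.1 and Matplotlib 3.10.9 did the rest.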

Additional observations from a re-analysis of the deposited data

Results flagged for a closer look

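In 3 of the 40 sets of 6 libraries examined (10 genes in 4 groups), 1 library stood apart from its group by Dixon's criterion, where chance gives about 1 in 20. Tgfb1 had 273.7 normalized counts in B-IRI Polg+/+ replicate 1, against 390 to 458 in the other 5. Postn had 208 in B-IRI Polg+/+ replicate 3, and Acta2 had 386.8 in sham Polg+/+ replicate 5.

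The injury change differed between the genotypes, by the interaction test, for Tgfb1 (0.60), Tgfbr1 (0.32), Pdgfrb (0.76), Acta2 (0.72) and Postn (1.13), each larger in PolgD257A. Of these calls, that of Tgfbr1 was lost without any of 17 of the 24 libraries, and that of Acta2 without any of 13. For Pdgfra, Vim and Tagln it did not pass (adjusted p = 0.064, 0.072 and 0.073).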

How the results depend on the processing

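The 22 member calls between 2 groups held under each setting run in which the gene was tested, Tagln being untested with the filter of 50 normalized counts. In the interaction 3 members passed with no filter, without Tgfbr1 (adjusted p = 0.085) and Acta2 (0.065), and 3 to 6 without 1 library. In sham the genes called between the genotypes numbered 22 in all, 37 with only the 12 libraries compared, 55 with library weights and 44 with DESeq2, and 0 members in each. On the recovered reads (100% whole) edgeR called 10640 genes for injury in PolgD257A, 7173 in Polg+/+, 5254 for genotype after B-IRI, 22 in sham and 2746 in the interaction. Depth limits Tgfb2 and Tagln most, with 20 to 50 reads per library for Tgfb2 and 11 to 47 for Tagln. TMM put 5582 genes higher and 5001 lower in PolgD257A injury, and 4099 higher and 3097 lower in Polg+/+.

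The labels do not say if replicate numbers pair the samples. Same-numbered libraries were little alike (correlations of -0.326 to 0.174, at most 1 library per comparison closest to its own number), which cannot show that no pairing was made. With the replicate block Tgfb2 was called for injury in Polg+/+ (0.040) and Tgfbr1's interaction was not (0.078). For the ratios the block flipped the signs of 6 paired differences. Its lowest possible p-value cannot pass over 12 tests when only 6 tests reach it. The 6 injury tests each reached it and so no longer passed (adjusted p = 0.0625 each by sign flips), and the block could not decide them. They were Tgfb2 to Tgfb1 at -1.26 and -0.96, Pdgfra to Pdgfrb at -0.62 and -0.56, and Postn to Dcn at 2.71 and 1.60, for PolgD257A and Polg+/+. Postn to Dcn after B-IRI did not pass either (0.79, adjusted p = 0.167 by sign flips). With a pseudocount of 5, Tgfb2 to Tgfb1 passed after B-IRI (-0.62, adjusted p = 0.042).

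Some uncalled values near 0 changed sign; the cause was not tested. After B-IRI, Tagln was 0.00044 with pseudocount 5, 0.0015 with TMM, 0.0056 with edgeR and 0.0059 with DESeq2, and Dcn -0.0087 with quantile normalization and -0.060 with weights. Dcn's interaction was -0.0050 and -0.039 under those. In sham, weights gave Tgfbr1 -0.017 and Pdgfra 0.041, and Dcn was 0.0049 with edgeR and 0.0051 with DESeq2. Without 1 library, sham values ran from -0.0069 to 0.098 (Tgfb1), -0.0068 to 0.049 (Tgfbr1), -0.13 to 0.021 (Pdgfra), -8.7e-05 to 0.13 (Acta2) and -0.071 to 0.077 (Dcn), and Pdgfra's injury change in Polg+/+ from -0.057 to 0.21. After B-IRI they ran from -0.082 to 0.087 (Tagln), -0.085 to 0.097 (Tgfb2) and -0.046 to 0.10 (Dcn), and Dcn's interaction from -0.044 to 0.10. Ratios ran from 0.65 to 0.94 (Postn to Dcn after B-IRI), -0.76 to -0.48 (Tgfb2 to Tgfb1 after B-IRI), -0.45 to -0.22 (the same in sham) and -0.062 to 0.085 (Pdgfra to Pdgfrb in sham).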
